A study of Mus musculus with 8 samples.

Results

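The expression of 10 autophagy genes tied to the secretory granules of Paneth cells (Atg16l1, Atg5, Atg7, Atg4b, Ulk1, Becn1, Map1lc3b, Sqstm1, Lrrk2 and Tfeb) was followed in sorted mouse Paneth cells. They were taken by name, though with earlier results of these data known, from a count table of 55414 gene identifiers, and all 10 were found in it. The table holds Paneth cells of the small intestine of 8 C57BL/6J mice, each giving 1 library. Of these, 4 mice ate standard chow (control) and 4 ate zinc depleted chow (zinc deficient) for 7 weeks. The labels name no allele or treatment besides the diet, and neither the age nor the sex of these mice is stated in the sources used here.

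Autophagy encloses cytoplasm in a double membrane and delivers it to the lysosome. The ULK1 kinase complex starts the process, a lipid kinase complex around Beclin 1 marks the membrane, and a ubiquitin-like system (ATG7, ATG5 with ATG12, ATG16L1) attaches LC3 and GABARAP proteins to it, which the ATG4 proteases first trim. In Paneth cells the same machinery is known for its part in the packaging of lysozyme and defensins into granules, and a common variant of ATG16L1 is a risk factor for Crohn's disease. LRRK2, a kinase linked to Crohn's disease and Parkinson's disease, has been tied to the sorting of lysozyme.

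The libraries held 8557690 to 12648005 counts, so that 3 counts, the upper limit which a count of 0 allows, equal 0.237 to 0.351 CPM (counts of a gene per 1000000 counts of its mouse). Such limits cover counting error only. Per mouse, 35.7% to 50.9% of the counts came from α-defensin genes and 0.347% to 0.711% from mitochondrially encoded genes. The defining Paneth cell genes Lyz1 (lysozyme) and Defa24 (an α-defensin) were present at 156304 and 213396 CPM on average, while erythroid markers, led by Hbb-bs, summed to at most 0.761 CPM in a mouse and stromal markers, led by Vim, to at most 0.592 CPM. Goblet cell markers summed to 7277 to 10446 CPM in the control and 7171 to 12124 CPM in the zinc deficient mice, where Spink4 led with 6129 CPM on average. Control mouse 1 stood apart from the other mice by its scaling factor. The trimmed mean of M values (TMM), which sets the libraries to a common level over most genes, gave it a factor of 1.57, against 0.719 to 1.16 in the other 7 mice.

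Between the diets, 9 of the 10 genes could be tested and none was called, and Lrrk2 had no count in any mouse. In the edgeR quasi-likelihood test, 0 of the 9 passed an adjusted p of 0.05 and 0 had an unadjusted p under 0.05. Of the 10911 genes tested, 0.403% were called, with 16 above and 28 below the control level, and an unadjusted p under 0.05 was found for 10.5%. DESeq2 likewise gave 0 of the 9 on both counts. After TMM scaling, the values of the diets overlapped for all 9 genes, while 6.09% of all genes tested did not overlap. The fold changes of the 9 genes lay between 0.939 and 1.26. Their 95% intervals all fell within 0.673-fold to 1.62-fold, so that a change by a factor of 2 in either direction was outside every interval at this scaling. These are bulk libraries of sorted cells, in which fewer cells of a type and less RNA per cell cannot be told apart.

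Whether a gene stood higher or lower depended on the scaling. With TMM, the median log2 fold change of all genes tested was -0.01 and 49.3% of them lay above 0. With the library size only, the median was -0.37 and 11.04% lay above 0. Of the 9 autophagy genes, 6 lay above 0 with TMM and 1 (Atg5, at 0.01) with the library size only. All 9 were uncalled in both cases. The signs given below are those with TMM, where the median of all genes lies near 0.

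**Figure D1:**
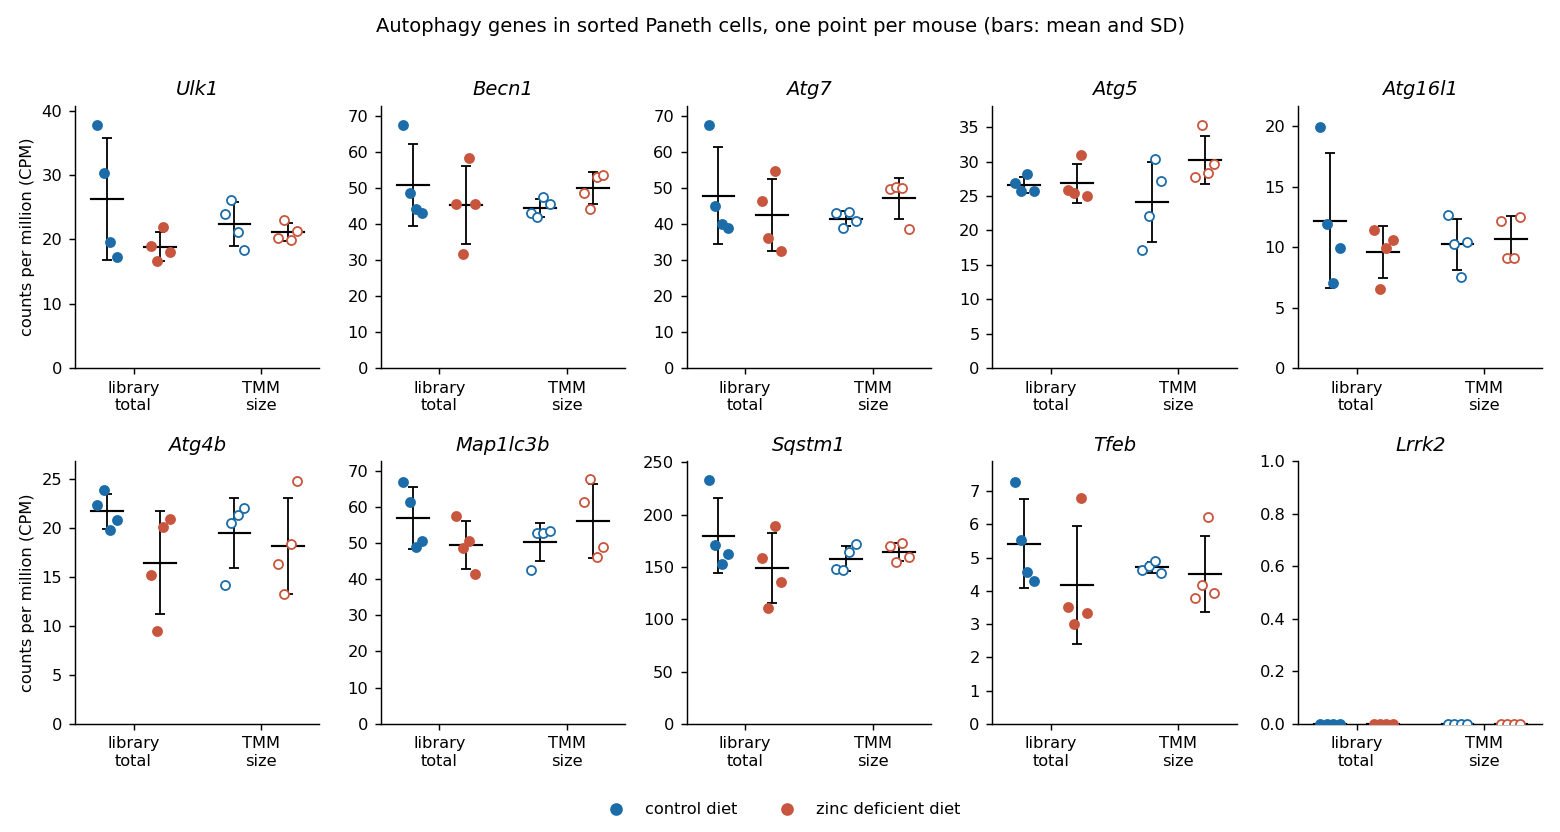
CPM of each of the 10 autophagy genes (y axis, a scale of its own for each gene) in every mouse, for the control diet (blue) and the zinc deficient diet (red). Filled points are scaled to the library total and open points to the TMM effective library size, and bars give the mean and SD of 4 mice. The diets overlap for all 9 expressed genes on the TMM scale, and Lrrk2 is at 0 in all 8 mice.

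MTF1, a transcription factor activated by zinc, binds metal response elements (MRE), and the promoters of the 10 genes were therefore read for this and for 3 other motifs. The windows ran from 250 bases before to 50 bases after the annotated start of the canonical transcript (GRCm39), and matches on both strands counted. MRE (TGCACNC or TGCGCNC) occurred in 6 of the 10 windows (Atg16l1, Atg5, Atg7, Atg4b, Map1lc3b and Tfeb, the last only after the start). It also occurred in 27.4% of the 21757 protein-coding promoters of the same length. The antioxidant response element, ARE (TGACNNNGC), bound by NRF2, occurred in those of Sqstm1 and Lrrk2 and in 12.5% of all promoters. The E-box CACGTG, the core of the sequence bound by TFEB and its relatives, occurred in that of Atg5, where it overlaps the start, and in 7.82% of all promoters. Its longer form TCACGTGA, the CLEAR element, occurred in none of the 10 and in 1.11% of all promoters, and each match of it also holds the E-box. A match is a run of letters and not a shown binding site, and the promoters compared were not matched to the 10 for base composition. The stretches below show the 2 promoters with adjacent or overlapping MRE matches before the start, and that of Sqstm1, the most abundant of the 10 genes by CPM. Each is 60 bases long and printed 5′ to 3′ on the strand of the gene, with the matches in capitals.
Atg7, chr6:114619978-114620037, plus strand, 80 to 21 bases before the start: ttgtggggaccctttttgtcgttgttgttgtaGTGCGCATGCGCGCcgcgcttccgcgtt
Map1lc3b, chr8:122317040-122317099, plus strand, 60 to 1 bases before the start: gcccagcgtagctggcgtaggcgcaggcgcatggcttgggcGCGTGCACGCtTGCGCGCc
Sqstm1, chr11:50102976-50103035, minus strand, 150 to 91 bases before the start: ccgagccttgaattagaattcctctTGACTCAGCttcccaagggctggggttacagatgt
In Atg7 and Map1lc3b the capitals are matches to the MRE on either strand, and in Sqstm1 a match to the ARE. The stretch of Sqstm1 lies inside the annotated gene, since longer transcripts start further upstream.

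Ulk1 (chromosome 5, 110931496 to 110957995, minus strand), the kinase that starts autophagosome formation, was measured at 37.7, 30.3, 19.6 and 17.3 CPM in control mice 1 to 4 and at 18.9, 16.6, 21.9 and 18.03 CPM in zinc deficient mice 1 to 4. Control mice 1 and 2 were the highest, and the other 2 control mice lay among the zinc deficient ones. On the TMM scale the means were 22.4 ± 3.40 and 21.2 ± 1.41 CPM (SD, n = 4 each). The log2 fold change of -0.09 (SE 0.16, edgeR adjusted p = 0.903) was smaller than its error. No annotated gene overlaps Ulk1, so its counts cannot come from a neighbour on the other strand.

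Becn1 (chromosome 11, 101176769 to 101193122, minus strand) encodes Beclin 1 of the lipid kinase complex. Its level was 67.5, 48.7, 44.1 and 43.1 CPM in the control and 45.5, 31.8, 58.2 and 45.5 CPM in the zinc deficient mice. Control mouse 1 was again the highest of all and zinc deficient mouse 2 the lowest. After TMM scaling these extremes closed to 41.9 to 47.5 CPM in the control and 44.2 to 53.7 CPM in the zinc deficient mice, a range of 1.28-fold over all 8. The log2 fold change was 0.17 (SE 0.13, edgeR adjusted p = 0.716). Cntd1 overlaps Becn1 on the opposite strand and had 31 counts over all mice.

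Of the conjugation machinery, Atg7 (chromosome 6, 114620044 to 114837576, plus strand), the activating enzyme for both ubiquitin-like proteins, stood at 67.5, 45.1, 40.1 and 38.8 CPM in the control and 46.5, 36.1, 54.8 and 32.7 CPM in the zinc deficient mice. With TMM, 3 zinc deficient mice (49.7, 50.2 and 50.01 CPM) were above every control mouse (38.8 to 43.2 CPM), whereas the last, at 38.6 CPM, was below all of them. Its log2 fold change of 0.18 (SE 0.14) gave an edgeR adjusted p of 0.696.

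Atg5 (chromosome 10, 44142076 to 44240308, plus strand), which is coupled to ATG12, had the most even CPM of the genes in the control mice, with 26.9, 25.7, 28.2 and 25.8 CPM. The zinc deficient mice had 25.9, 25.4, 31.0 and 25.1 CPM, and zinc deficient mouse 3 was the highest of all 8. On the TMM scale, the same counts spread to 17.1, 22.1, 30.3 and 27.2 CPM in the control and 27.7, 35.3, 28.3 and 29.6 CPM in the zinc deficient mice, so that the value of 17.1 CPM belongs to control mouse 1 with its high factor. Atg5 had the largest log2 fold change of the 9 genes, 0.33 (SE 0.17, 95% interval -0.04 to 0.69, edgeR adjusted p = 0.536). It was 0.19 without control mouse 1, 0.01 with the library size only, and 0.46 without control mouse 3, where its unadjusted p was under 0.05 but the adjusted p was 0.332.

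Atg16l1 (chromosome 1, 87683592 to 87720150, plus strand), which places the conjugating complex on the membrane, had the widest range of CPM, with 19.96, 11.9, 7.01 and 9.92 CPM in the control and 11.4, 6.53, 9.94 and 10.6 CPM in the zinc deficient mice. The highest mouse was 3.05-fold above the lowest, and control mouse 1 alone exceeded 12 CPM. On the TMM scale the means were 10.2 ± 2.11 CPM in the control and 10.7 ± 1.89 CPM in the zinc deficient mice. The log2 fold change was 0.05 (SE 0.20, edgeR adjusted p = 0.959), and its sign turned with the library size only and when each of 3 single mice was left out.

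Atg4b (chromosome 1, 93679222 to 93718332, plus strand), the main protease that trims LC3, was at 22.3, 23.9, 19.7 and 20.8 CPM in the control and 15.2, 9.53, 20.1 and 21.0 CPM in the zinc deficient mice. On this scale, zinc deficient mice 1 and 2 lay below all the others, and the other 2 lay among the control mice. With TMM, values were 14.2, 20.5, 21.3 and 22.0 CPM in the control and 16.3, 13.2, 18.4 and 24.8 CPM in the zinc deficient mice. There zinc deficient mouse 2 was the lowest and zinc deficient mouse 4 the highest of all 8. The log2 fold change was -0.09 (SE 0.20, edgeR adjusted p = 0.923), and without zinc deficient mouse 2 it was 0.03. Thap4 overlaps Atg4b on the opposite strand and had 845 counts over the 8 mice. Whether the counting used the strand is not given, so the reads of the pair cannot be told apart.

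Map1lc3b (chromosome 8, 122317100 to 122325499, plus strand), the LC3 protein used as the marker of autophagosomes, was at 66.8, 61.3, 48.8 and 50.5 CPM in the control and 57.3, 48.7, 50.4 and 41.4 CPM in the zinc deficient mice. With TMM, zinc deficient mice 1 and 2 (61.3 and 67.8 CPM) were above and the other 2 (46.0 and 48.9 CPM) within the range of the control mice, 42.5 to 53.3 CPM. Its log2 fold change was 0.15 (SE 0.15, edgeR adjusted p = 0.787). Zcchc14, on the opposite strand, overlaps it and had 1291 counts over all mice.

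Sqstm1 (chromosome 11, 50089572 to 50107684, minus strand) encodes p62, the receptor that links ubiquitin-bearing cargo to LC3 and is itself degraded by autophagy. It was the most abundant of the 10 in CPM, with 233, 171, 153 and 163 CPM in the control and 159, 111, 190 and 135 CPM in the zinc deficient mice. On the TMM scale its range over all 8 mice, 1.17-fold, was the narrowest of the 9, with 148 to 172 CPM in the control and 155 to 173 CPM in the zinc deficient mice. The log2 fold change of 0.06 (SE 0.14, edgeR adjusted p = 0.931) had a 95% interval of 0.848-fold to 1.28-fold. Mrnip and Mgat4b overlap its ends on the opposite strand and together had 5141 counts over the 8 mice, against 14174 counts of Sqstm1.

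Tfeb (chromosome 17, 48047837 to 48103348, plus strand), the transcription factor for lysosomal and autophagy genes, was the lowest expressed of the 9, with 7.27, 5.51, 4.56 and 4.31 CPM in the control and 3.53, 2.99, 6.80 and 3.32 CPM in the zinc deficient mice. These rest on 33 to 86 counts per mouse. Zinc deficient mouse 3 lay above 3 of the control mice, and the other 3 zinc deficient mice lay below all of them. With TMM, at 4.55 to 4.91 CPM in the control and 3.77, 4.16, 6.21 and 3.92 CPM in the zinc deficient mice, this mouse lay above and the other 3 below all control mice. The log2 fold change was -0.05 (SE 0.25, edgeR adjusted p = 0.967), the least precise of the 9.

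**Figure D2:**
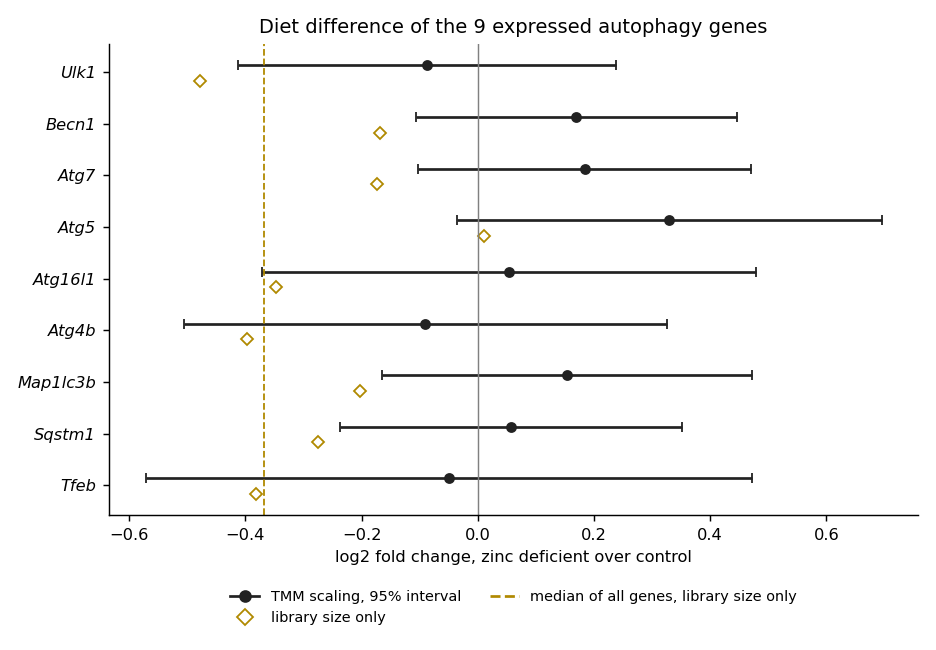
Log2 fold change of the 9 expressed autophagy genes (x axis, zinc deficient over control). Black points and bars give the edgeR estimate with TMM and its 95% interval, open diamonds the estimate with the library size only, and the dashed line the median of all genes with the library size only, -0.37. Every interval includes 0, and the diamonds lie to the left of the points by about the shift of that median.

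Lrrk2 (chromosome 15, 91557083 to 91700604, plus strand) had 0 counts in each of the 8 mice. Out of 85938593 counts in all, this allows up to 0.0349 CPM over the pooled libraries. A count of 0 throughout was shared by 7570 of the 21627 protein-coding genes of the table, or 35.002%. No annotated gene overlaps Lrrk2. Its relative Lrrk1, by contrast, was at 13.2 CPM on average. Lrrk2 is known to be expressed in macrophages and B cells. Most of 12 markers of immune cells were near or at 0, and a link of this to Lrrk2 was not tested. Csf1r, Adgre1, Cd3e, Cd8a, Ms4a1 and S100a8 had no count, and Ptprc, carried by nearly all leukocytes, stood at 0.493 CPM on average, Itgam at 0.055 and Cd79a at 0.012. The 10 immune markers other than Cd74 and Lyz2, which epithelial cells also express, had 52 counts in all. The most abundant immune marker was Lyz2 with 33.9 CPM, and all 12 markers summed to 37.6 to 143 CPM in the control and 39.3 to 71.5 CPM in the zinc deficient mice.

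The other 10 genes of a list of LRRK2 substrates and partners all had counts. Rab10, a small GTPase phosphorylated by the kinase, was the most abundant of the list at 14.6 TPM (counts per summed exon length, scaled to 1000000 in each mouse), with a log2 fold change of 0.00. Rab29, which recruits LRRK2 to membranes, had the largest difference, 0.66 (SE 0.27, edgeR adjusted p = 0.386), and Rab12 was at -0.33 (adjusted p = 0.872). Rab29 was at 0.33 with the library size only. Of the 11 genes 10 were tested, and none was called.

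Levels of different genes can be compared only per length. By mean TPM over the 8 mice, the order was Sqstm1 (16.7 ± 5.17, SD), Map1lc3b (5.79 ± 1.34), Becn1 (5.45 ± 1.68), Atg5 (5.34 ± 0.662), Atg7 (4.54 ± 1.55), Ulk1 (2.55 ± 1.10), Atg4b (1.64 ± 0.474), Atg16l1 (0.692 ± 0.333) and Tfeb (0.585 ± 0.243), with Lrrk2 at 0. Of the 8 pairs of neighbours among the 9 expressed genes, 4 differed in a two-sided, exact sign-flip permutation test within mice. These were Sqstm1 over Map1lc3b, Atg7 over Ulk1, Ulk1 over Atg4b and Atg4b over Atg16l1. Each held in 8 of 8 mice, with p = 0.00781, the smallest that 8 mice can give, and an adjusted permutation p of 0.0156 over the 8 pairs. Map1lc3b and Becn1 (adjusted permutation p = 0.312), Becn1 and Atg5 (0.898), Atg5 and Atg7 (0.0625), and Atg16l1 and Tfeb (0.229) did not differ beyond their spread. By mean TPM, Sqstm1 thus stood at the top, Map1lc3b, Becn1, Atg5 and Atg7 in the middle, and Ulk1, Atg4b, Atg16l1 and Tfeb lowest. The middle genes were not shown to be equal, since only neighbours were tested. Map1lc3b lay above Atg7 in every mouse, a pair that was not tested.

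The place of Map1lc3b depended on its annotated length, which was 7617 bases over all exons, 4138 for the longest transcript and 889 for the canonical one. With canonical transcripts, chosen as an alternative after the values were seen, Map1lc3b (42.9 TPM) stood above Sqstm1 (36.3 TPM) in 7 of 8 mice with an adjusted exact permutation p of 0.0312, followed by Atg7 (8.68), Atg5 (8.01) and Becn1 (7.94). Atg4b (3.18), Ulk1 (2.69) and Atg16l1 (2.52) were close together there, and Tfeb (1.48) was last. Ulk1 and Atg4b also changed places with the longest transcript. Under all 3 lengths, Atg5, Atg7 and Becn1 stood above Ulk1, Atg4b, Atg16l1 and Tfeb, and Tfeb was the lowest of the 9.

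**Figure D3:**
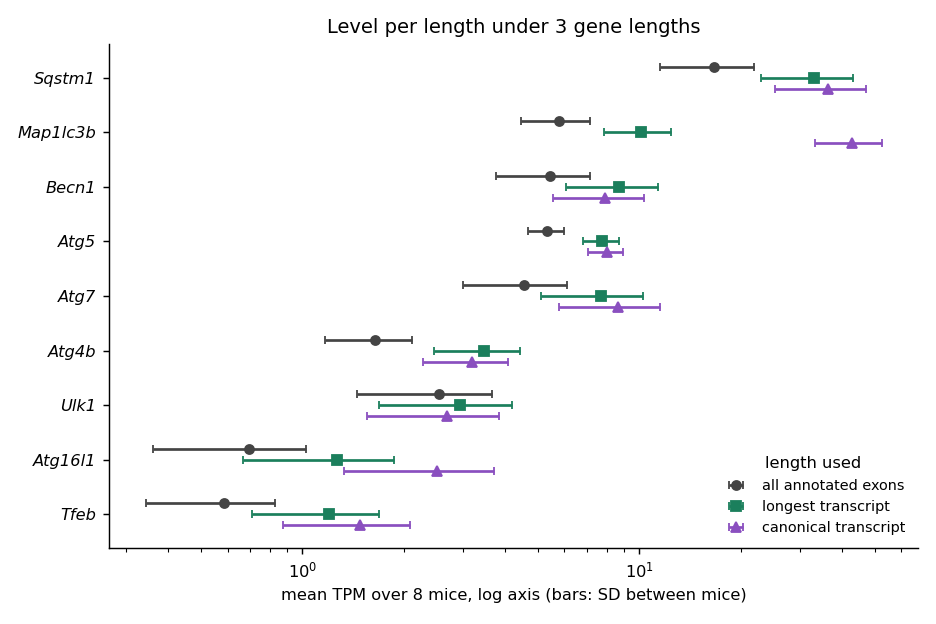
Mean TPM of the 9 expressed autophagy genes over 8 mice (x axis, log scale, bars the SD between mice) computed with 3 gene lengths. Sqstm1 leads with all exons (16.7) and Map1lc3b with canonical transcripts (42.9), while Tfeb is the lowest with every length.

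The spread between mice depended on the scale. The median coefficient of variation within a diet was 22.4% in the control and 22.5% in the zinc deficient mice on the CPM scale, and 10.3% and 12.1% on the TMM scale. Control mouse 1 had the highest CPM for 7 of the 9 genes but the highest TMM-scaled value for 1. Zinc deficient mouse 2 had the lowest CPM for 6 of them and zinc deficient mouse 4 for the other 3. Without control mouse 1 the median over genes and diets fell from 22.4% to 13.3%. For some genes the coefficient was larger on the TMM than on the CPM scale. In the control mice that of Atg5 was 4.39% on the CPM and 24.03% on the TMM scale and that of Atg4b 8.25% and 18.4%, and in the zinc deficient mice that of Map1lc3b was 13.3% and 18.4%. In the edgeR fit, the biological coefficient of variation had a median of 16.1% over the 9 genes and 20.4% over all genes tested.

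The members were next set against their own families, as the share of the summed TPM of a family, a measure that does not depend on the scaling between libraries and that was added after the values were seen. Ulk1 took 78.5% ± 2.92 (SD, n = 8) of the sum of Ulk1 and Ulk2, and Atg16l1 81.9% ± 6.01 of that of Atg16l1 and Atg16l2. Tfeb took 34.9% ± 4.53 of the 4 MiT/TFE factors, where Tfe3 was the most abundant (0.971 TPM) and Tfec had no count. Atg4b took 26.3% ± 2.80 of the 4 ATG4 proteases, behind Atg4d with 3.08 TPM. Sqstm1 took 18.1% ± 1.21 of the 16 autophagy receptors. Map1lc3b took 7.81% ± 1.31 of the 5 LC3 and GABARAP genes, of which Gabarap (52.4 TPM) was the largest. Most shares moved with the gene length used. With longest and canonical transcripts, Map1lc3b took 11.1% and 33.3%, Atg4b 36.9% and 34.1%, and Sqstm1 22.6% and 22.0%. Tfeb took 42.8% and 37.3%, Atg16l1 87.0% and 93.5%, and Ulk1 77.4% and 77.2%.

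When 4 mice were set against 4 by exact permutation (two-sided), none of these shares was found to differ between the diets. The differences, zinc deficient minus control, were -1.02 percentage points for Ulk1, -0.63 for Atg16l1, -3.48 for Tfeb, -2.45 for Atg4b, 0.56 for Sqstm1 and -1.05 for Map1lc3b. The exact permutation p ranged from 0.171 to 0.914 and, adjusted over the 6 shares, from 0.686 to 0.914, where the smallest p such a test can give is 0.0286.

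**Figure D4:**
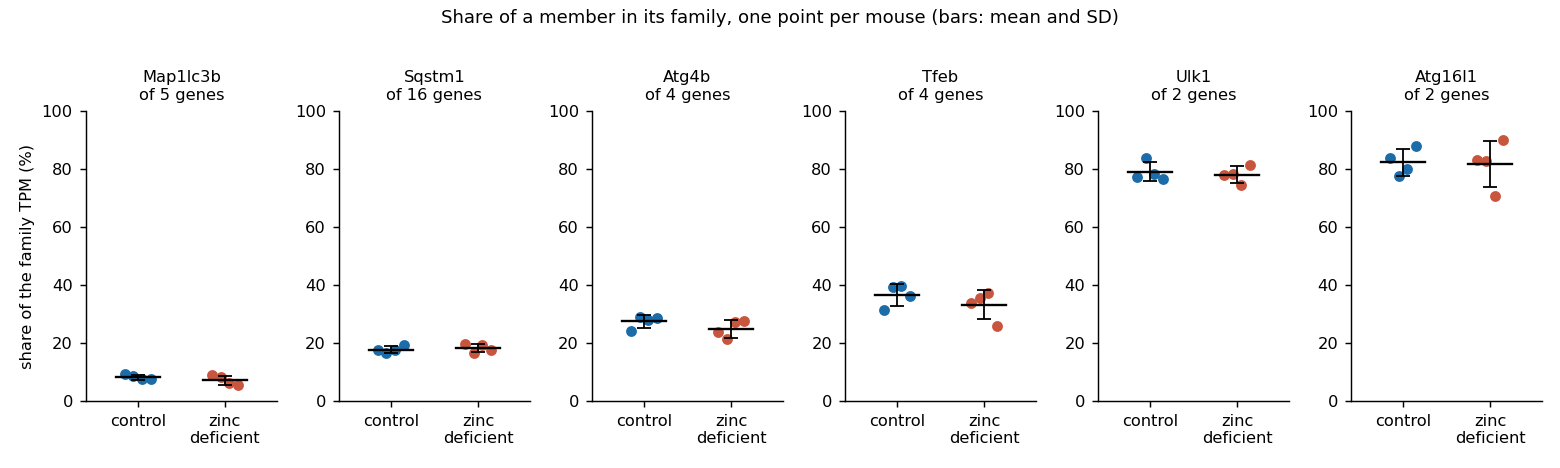
Share of 6 autophagy genes in the summed TPM of their families (y axis, percent) in each control (blue) and zinc deficient (red) mouse, with the mean and SD of 4 mice. The shares of Ulk1 and Atg16l1 lie above 70% in all 8 mice, that of Map1lc3b lies between 5.52% and 9.44%, and the diets overlap in all 6.

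Around the 10 genes, 135 other genes of 13 pathway lists were examined, of which 131 were tested. None was called, and their median log2 fold change was 0.04, beside -0.01 over all genes tested. An unadjusted p under 0.05 was found for 9 of the 131, or 6.87%, a smaller share than the 10.5% of all genes tested. Of these 9, 7 lay above 0 (Gabarapl2, Gabarapl1, Vamp8, Atp6v0d1, Lamp2, Ctsl and Rab29) and 2 below (Sesn2 and Sesn3). The diets did not overlap for 3 of the 131 on the TMM scale (Gabarapl1 and Ctsl, higher, and Sesn3, lower), or 2.29%, beside 6.09% of all genes tested. On the CPM scale they did not overlap for 4 (Phb2, Ctsb, Npc2 and Sesn3, all lower), or 3.05%, beside 6.83%.

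At the start of the pathway, the ULK1 complex (5 genes) had log2 fold changes from -0.09 to 0.03, with its subunit Atg13 the most abundant at 4.29 TPM (-0.03) and Atg101 the highest at 0.03. In the lipid kinase complex, 3 of 8 genes lay above 0, from Becn1 at 0.17 to the catalytic subunit Pik3c3 at -0.34 (SE 0.24, edgeR adjusted p = 0.672). Of the 8 ATG9 and WIPI genes, which supply lipid to the growing membrane, Wipi1 led in level at 3.72 TPM (-0.04). The scramblase Atg9a was at 0.32 (adjusted p = 0.580) and its relative Atg9b, at 1.65 CPM, at -0.36 (adjusted p = 0.840).

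Of the 7 conjugation genes, 6 lay above 0 with TMM and Atg10 was at -0.24 (SE 0.31, edgeR adjusted p = 0.851). The 4 ATG4 proteases ranged from -0.09 for Atg4b to 0.11 for Atg4d. All 5 LC3 and GABARAP genes lay above 0 with TMM, at a median of 0.37, the highest of the 13 lists, and 4 of the 5 with the library size only, where their median was 0.40 above that of all genes. The median was 0.22 without control mouse 1. Among them Gabarapl2, which acts late in autophagosome closure and fusion, had the largest value, 0.66 (SE 0.21, edgeR adjusted p = 0.234). On the library total it was measured at 13.5 to 16.6 CPM in the control and 16.1 to 20.1 CPM in the zinc deficient mice. With TMM the ranges were 8.99 to 17.9 and 17.8 to 27.9 CPM, which overlapped. The log2 fold change of Gabarapl2 was 0.33 with the library size only and 0.50 without control mouse 1. Gabarapl1 was at 0.46 (SE 0.16, adjusted p = 0.273), with TMM-scaled values of 21.9 to 31.0 CPM in the control and 33.2 to 42.3 CPM in the zinc deficient mice. Its CPM on the library total, 20.3 to 35.3 and 28.5 to 36.4, overlapped, and its log2 fold change was 0.10 with the library size only. Gabarap was at 0.33 and Map1lc3a at 0.37, and Map1lc3b had the smallest value of the 5.

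The 16 receptor genes, of which 15 were tested, had a median of 0.06, from Calcoco1 at -0.11 (SE 0.29) to the reticulum receptor Tex264 at 0.34 (SE 0.18, edgeR adjusted p = 0.532). Among the 13 genes of autophagosome fusion, the SNARE protein gene Vamp8 was both the most abundant (12.1 TPM) and the highest at 0.47 (SE 0.17, adjusted p = 0.281), and Epg5 was the lowest at -0.25 (adjusted p = 0.762). Vamp8 was at 0.14 with the library size only. Tfe3, the relative of Tfeb, was at 0.15 (SE 0.21, adjusted p = 0.861).

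Of the 28 lysosome genes, 18 lay above 0 and 10 below with TMM, at a median of 0.08 (0.02 without control mouse 1). With the library size only, 4 lay above and 24 below, beside 11.04% of all genes tested above 0. The median of the list was then 0.13 above that of all genes. Atp6v0d1, a subunit of the proton pump, was the highest at 0.48 (SE 0.17, edgeR adjusted p = 0.273) and the cholesterol transporter gene Npc1 the lowest at -0.52 (SE 0.28, adjusted p = 0.541). With the library size only, Atp6v0d1 was at 0.18. The most abundant was Cd63 at 43.8 TPM (0.33, adjusted p = 0.599). The membrane protein gene Lamp2 was at 0.46 (adjusted p = 0.415) and the protease gene Ctsl at 0.34 (adjusted p = 0.462), or 0.14 and 0.02 with the library size only. The CPM of Ctsl on the library total overlapped fully, at 29.9 to 33.1 in the control and 24.0 to 36.5 in the zinc deficient mice.

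The regulators upstream, mTORC1 and AMPK, gave 12 genes above and 15 below 0 of 27 tested with TMM, at a median of -0.10. Without control mouse 1, 13 lay above and 14 below, at a median of -0.006. With the library size only, 3 lay above and 24 below, beside 11.04% of all genes tested above 0. Sesn2, a stress-induced inhibitor of mTORC1, had the lowest log2 fold change of all 131 genes, -0.79 (SE 0.23, edgeR adjusted p = 0.183), with 6.61 to 16.7 CPM in the control and 3.72 to 7.76 CPM in the zinc deficient mice. Its relative Sesn3 was at -0.47 (SE 0.17, adjusted p = 0.310), with 20.3 to 31.4 CPM in the control and 10.4 to 19.5 CPM in the zinc deficient mice. The Ragulator subunit Lamtor5 was the highest at 0.37 (adjusted p = 0.551), and the most abundant was the Rag GTPase gene Rraga (16.2 TPM).

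Other genes tied to Paneth granules or Crohn's disease likewise gave no call among 7 tested. Irgm1, an immunity-related GTPase, was at 0.35 (SE 0.22, edgeR adjusted p = 0.633), Xbp1, the transcription factor of the secretory stress response and the most abundant at 28.7 TPM, at -0.03, and the phosphatase gene Ptpn2 at -0.05. Nod2, the bacterial sensor with the best known Crohn's disease variants, was too low to be tested, at 0 to 0.702 CPM per mouse.

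**Figure D5:**
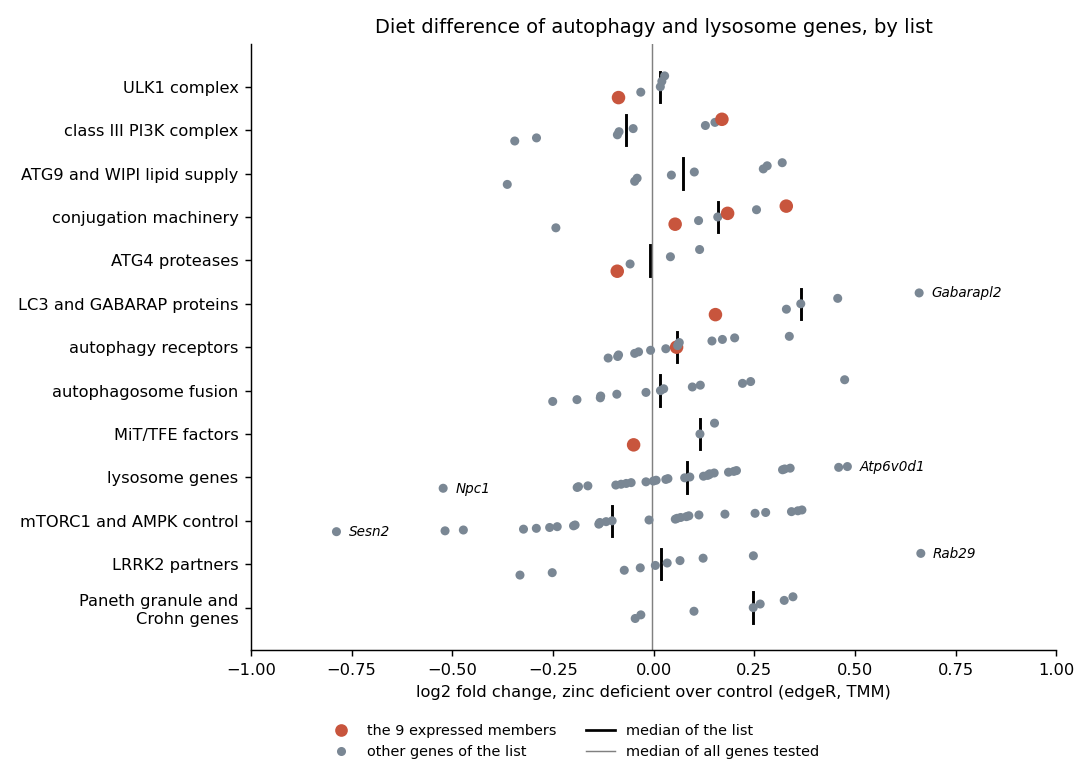
Log2 fold change (x axis, zinc deficient over control, edgeR with TMM) of every tested gene in 13 autophagy and lysosome lists (y axis). Red points are the 9 expressed genes of the 10, grey points the other genes, black ticks the list medians and the grey line the median of all genes tested. The medians lie between -0.10 and 0.37, the latter that of the LC3 and GABARAP genes, and no gene shown was called.

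Markers of other cells moved with the diet in part. Of 8 markers of stem and dividing cells, all lay below 0 and Top2a, a marker of division, was called lower (log2 fold change -1.18, edgeR adjusted p = 0.0229), but not with the library size only (adjusted p = 0.116). The list summed to 1568 to 2615 CPM in the control and 653 to 1295 CPM in the zinc deficient mice, led by Olfm4. All 12 Paneth markers lay above 0 with TMM and 9 with the library size only, and Reg3g, a secreted lectin, was called higher (1.598, adjusted p = 0.00710). Without control mouse 1, 10 of these 12 markers lay above 0, and the median of the list was 0.47 instead of 0.65. Tuft cell markers summed to 62.6 to 106 CPM in the control and 17.8 to 462 CPM in the zinc deficient mice, with Dclk1 at 24.8 CPM on average. All 8 tuft cell markers tested lay above 0, none of them called, at a median of 1.12 with TMM and 1.01 with the library size only. The sums of the zinc deficient mice reached both below and above those of all control mice, and markers read from the same mice are not independent. Enterocyte markers, led by Anpep, summed to 269 to 411 CPM in the control and 172 to 424 CPM in the zinc deficient mice, and those of enteroendocrine cells, led by Sct, to 33.2 to 48.9 and 13.7 to 29.2 CPM. The part of these cells in the values of the autophagy genes was not tested.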

How the data were processed

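The authors deposited 1 table of whole-number raw counts per Ensembl gene for 8 libraries (TruSeq stranded mRNA, FACS-sorted Paneth cells). The submitters' processing notes name mm39, FastQC 0.12.0, STAR 2.7.0a and DESeq2, without their roles. For the counting program, annotation and strand setting nothing is stated in the sources used here. Of 55414 identifiers, 54749 were named with GENCODE M39 on GRCm39 (665 were not found). No column of another sample was present. Replicates of a diet differed well beyond counting error (chi-square per degree of freedom 5.43 to 55.1), and the p-values measure the spread between these mice.

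CPM were computed from library totals or TMM effective sizes, and TPM from summed exon lengths. Diets were compared with edgeR 4.0.16 (R 4.3.3): TMM, filterByExpr, robust quasi-likelihood test, Benjamini-Hochberg adjustment over 10911 genes with a threshold of 0.05. The step was tested on simulated data. SE is the absolute log2 fold change over the square root of F. Exact permutation tests on log2(CPM + 1), log2(TPM + 1) or percent were run in scipy 1.17.1, numpy 2.4.6 and pandas 2.3.3 under Python 3.11.15, with plots by matplotlib 3.10.9. Alternatives were DESeq2 1.42.0, its size factors, library size only, Defa genes left out, no filter, no robust option, the replicate block, each mouse left out, other lengths and other pseudocounts.

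The 10 genes and all lists were chosen with earlier results of these data known. Named are the 10 genes, any called gene of the pathway lists, in each pathway list the most abundant and the most positive and negative genes, the leading gene of each cell type list, and Lyz1, Defa24, Ptprc, Cd79a, Csf1r and Itgam. Lrrk1, Nod2, Tfec, Map1lc3a, Ulk2, Atg16l2, Top2a, Reg3g, the immune markers at 0, overlapping genes and the genes with an unadjusted p under 0.05 or without overlap between diets are named beside this rule, after their values were seen.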

Additional observations from a re-analysis of the deposited data

Results flagged for a closer look

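Of 18 groups tested (the 9 expressed genes in each diet, 4 mice each, CPM on the library total), 2 held a mouse far from the other 3 by Dixon's criterion. Chance gives about 1 in 20 such groups. Both were zinc deficient mouse 3, with Atg5 at 31.0 CPM (gap over range 0.859) and Tfeb at 6.80 CPM (0.860). The TMM factor of this mouse was 1.10, against 0.719 to 0.935 in the other zinc deficient mice. On the TMM scale Tfeb remained its highest value of the diet, at 6.21 CPM, and Atg5, at 28.3 CPM, lay inside the range of the other 3 mice. Without this mouse, none of the 9 genes was called in the edgeR fit.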

How the results depend on the processing

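None of the 9 expressed autophagy genes was called under any of 15 alternatives, and Atg5 and Ulk1 kept their sign in all of them. The sign of 5 others turned with the library size only, to a log2 fold change of -0.35 for Atg16l1, -0.17 for Atg7, -0.17 for Becn1, -0.20 for Map1lc3b and -0.28 for Sqstm1; this scaling shifts all genes down. With single mice left out, Atg16l1 ranged from -0.058 to 0.18 (negative without control mouse 3, at -0.058, and without zinc deficient mice 1, at -0.010, and 4, at -0.030), Atg4b from -0.27 to 0.032 (above 0 without zinc deficient mouse 2) and Tfeb from -0.25 to 0.029 (above 0 without zinc deficient mice 1 and 4, at 0.029 and 0.019). The genes called over the whole table, 44, became 146 with DESeq2, 251 with no filter, 11 with the library size only, 25 without the robust option, and 8 to 36 with a mouse left out, and the cause was not tested. Of the other pathway genes, Gabarapl2 was called with no filter only (1 gene). No neighbour pair of levels differed in the control mice alone (0 of 8), since 4 mice cannot reach the threshold. Whether mice with the same replicate number in the diets belong together was not settled. Correlations of same-numbered mice were 0.0299 to 0.0900, and those of other pairs -0.166 to 0.136. Of 8 mice, 5 were closest to their own number. The replicate block gave 53 called genes and none of the 9. Depth limits Tfeb most, with 33 to 86 counts.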
